A study of Homo sapiens with 36 samples.

Results

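The genes described here are 9 that handle fatty acids once they are inside a cell: the lipid droplet proteins PLIN2, PLIN3 and HILPDA, the triglyceride enzymes DGAT1 and PNPLA2, the oxidation enzymes CPT1A and ACADVL, and the fatty acid carriers FABP5 and FABP7. They were chosen by symbol, and each of the 9 was found in both deposited tables of normalised log values, which list 13364 and 13066 genes. All 9 entered every test, since no further filter on low values was applied to the listed genes. Only 152 to 623 of the listed genes had 0 reads in a library, so genes with few reads may have been left out before deposit.

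The study measured RNA in 501mel and IGR37, human melanoma cell lines, after stearoyl-CoA desaturase (SCD) had been blocked or silenced. SCD puts the double bond into saturated fatty acids, and the series concerns its link to MITF and melanoma cell states. In each line 3 libraries were made for each of 6 groups, 36 in all. The groups were DMSO, an SCD inhibitor at 1 uM (labelled SCDi_A93), and 4 transfections at 20 nM, which were siCTR, siSCD_2, siCTR_1 and siSCD_1. Inhibitor and siRNA groups were treated for 48 h, and all cells grew in RPMI with 10% serum. The first table holds 24 libraries (DMSO, SCDi_A93, siCTR and siSCD_2) and the second 12 (siCTR_1 and siSCD_1). The tables were normalised separately, so every test stays within a table and levels set across tables are only described. The labels do not state whether replicates came from separate cultures, and a p-value here covers only library-to-library spread, which may be technical.

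Cells store surplus fatty acid as triglyceride in lipid droplets, which bud from the endoplasmic reticulum and are coated by perilipins. DGAT1 makes triglyceride and PNPLA2 (ATGL) starts its breakdown, which HILPDA holds back by inhibiting PNPLA2. Released fatty acid is carried by FABP proteins and enters mitochondria through CPT1A, where ACADVL takes the opening step of oxidising long chains. FABP7 is a neural crest and glial carrier known in melanoma cells, and FABP5 is the carrier best known from skin.

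On hg38 (GENCODE 29) PLIN2 lies at chr9:19108375-19149290, HILPDA at chr7:128455849-128458418, CPT1A at chr11:68754620-68844410 and FABP7 at chr6:122779475-122784074. For promoters, RefSeq (GRCh38.p14) gave 6 of the 9 genes a window of 250 bases before to 50 after the start. HILPDA, DGAT1 and FABP5 had no entry. Motifs were searched on both strands. The stretches below are shown because PLIN2 and PLIN3 were the only genes of the 6 with a match to a searched motif. Each is given in its gene's direction with the matched motif in capitals, and all matches are descriptions of letters.
PLIN2, chr9:19127546-19127571, minus strand: tgccgcgggtCACGTGctgcggaggc
PLIN3, chr19:4867807-4867835, minus strand: ccggacttcaTGACTTGGCgaggggcggg
The PLIN2 match is an E-box, CACGTG, beginning 69 bases before the start inside the first exon of a GENCODE 29 PLIN2 transcript, and held by 7.43% of 27305 RefSeq promoters of the same length. It contains the hypoxia core ACGTG, held by 21.6%, which PLIN2 carries again 120 bases before the start. PLIN3 matched the antioxidant element TGACNNNGC (13.6% of promoters) 158 bases before its start. The M-box CATGTG (11.2%), the ATF4 element TGATGNAA (3.67%) and the PPAR direct repeat (0.02%) were in none of the 6 windows.

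Depth, inferred from the log values, ranged from 4078450 to 6685898 gene reads a library for the first table and from 2402788 to 7483010 for the second. A level is given as log2 CPM, a library-scaled read count on the log scale, and 3 reads correspond to 0.416 to 0.720 CPM and to 0.388 to 1.19 CPM, respectively. With each siRNA in each line SCD itself fell by 2.67 to 4.33 on the log2 scale, with the IGR37 siSCD_2 libraries apart from each other at 6.52, 5.32 and 6.09. Under the inhibitor SCD RNA rose in IGR37, by 0.63 ± 0.16 (SE, limma adjusted p = 0.00215). All 7 melanocyte markers were listed in both tables, summing to 2961 to 6987 CPM. None of 5 adipocyte markers was listed. Of the fibroblast, keratinocyte and blood or endothelial markers only some were listed, with sums of 1.84 to 19.8, 146 to 281 and 4.73 to 90.4 CPM, and their part in the results was not tested. The keratinocyte sum is KRT10 alone, since KRT5, KRT14, KRT1 and TP63 were not listed. In bulk RNA, fewer cells of a kind and less RNA per cell cannot be told apart.

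**Figure D1:**
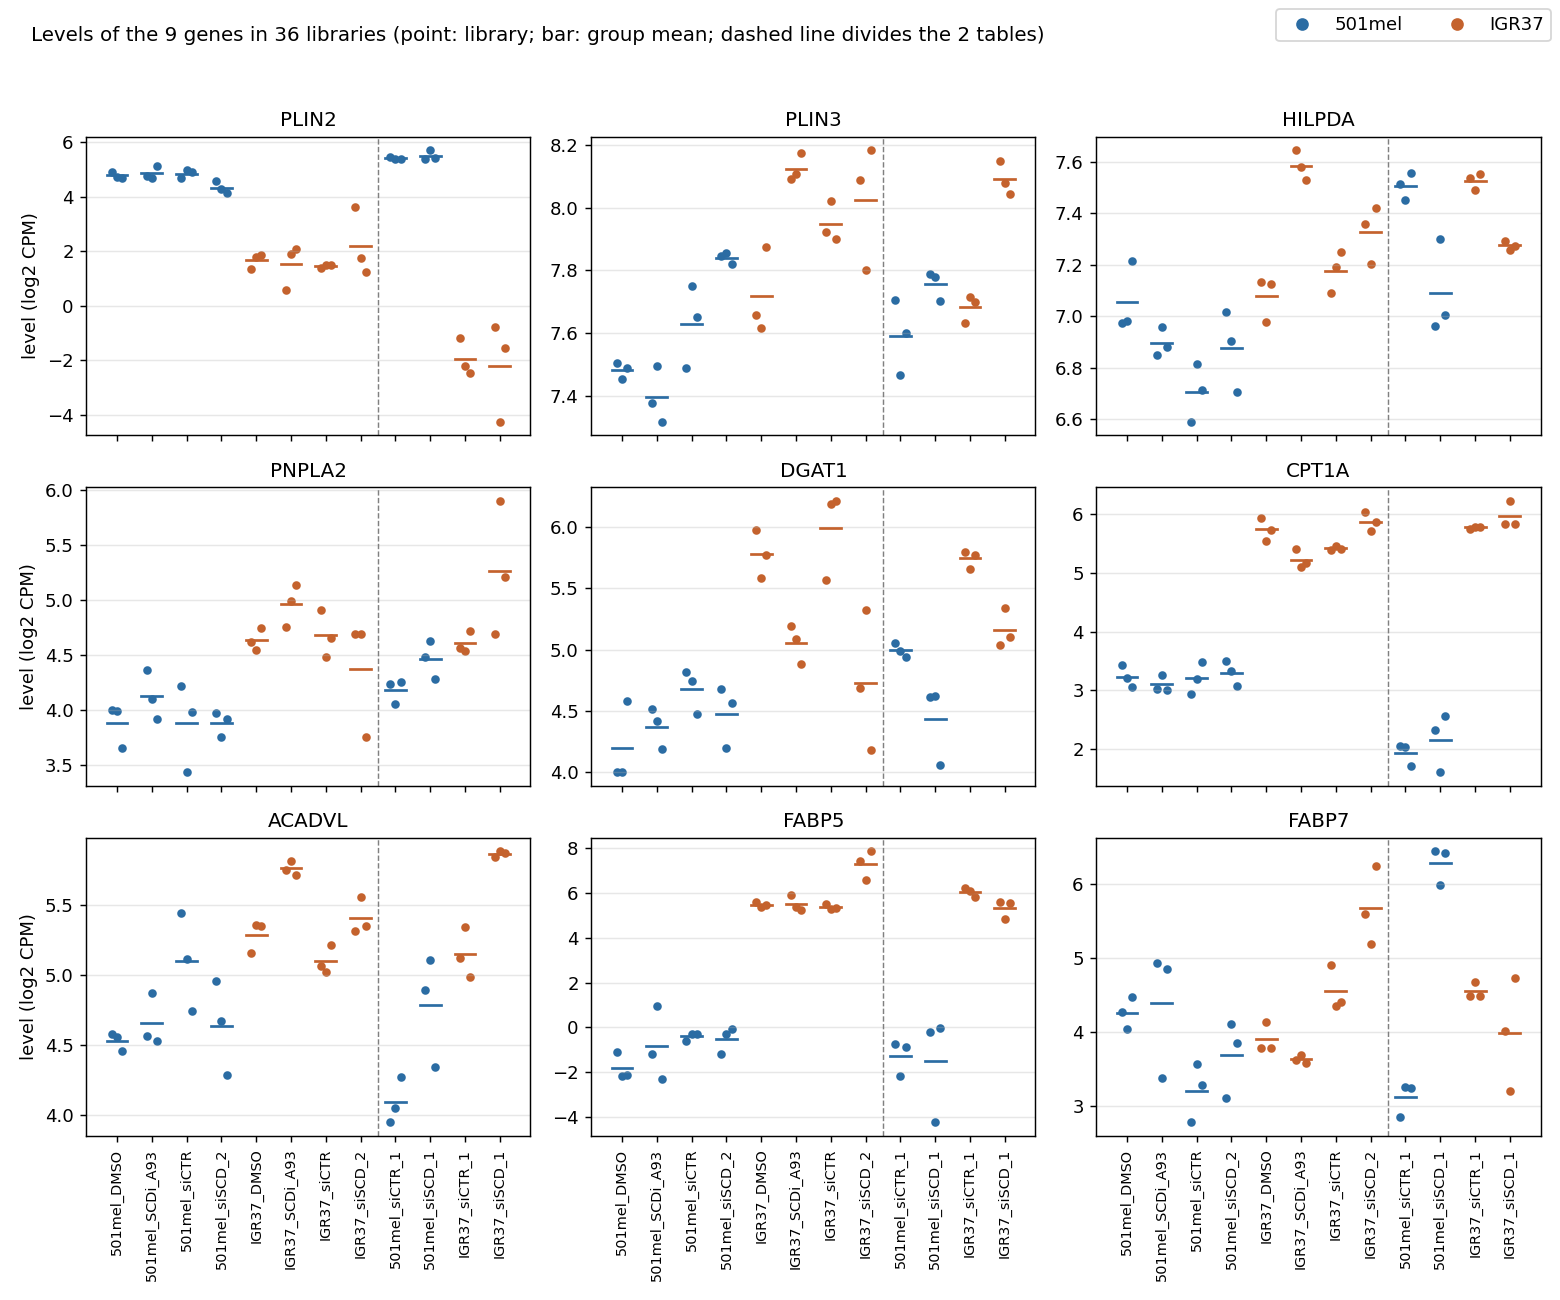
Levels of the 9 genes in all 36 libraries, in log2 CPM on the vertical axis, with each point a library and each bar the mean of 3; the dashed line divides the separately normalised tables. PLIN2 sits high in every 501mel library and FABP5 high in every IGR37 library, while FABP7 is highest in 501mel after siSCD_1.

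In the control groups, DMSO and the control siRNAs, the lines differed in most of these genes. In IGR37, FABP5, CPT1A and DGAT1 were higher than in 501mel under all 3 controls, and PLIN2 was lower under all 3. Under DMSO 7 of the 9 differed (limma, adjusted p under 0.05), under siCTR 8 and under siCTR_1 6. Of all genes, 60.8%, 62.6% and 60.4% differed in the same comparisons, so the shares are read against a high background.

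**Figure D2:**
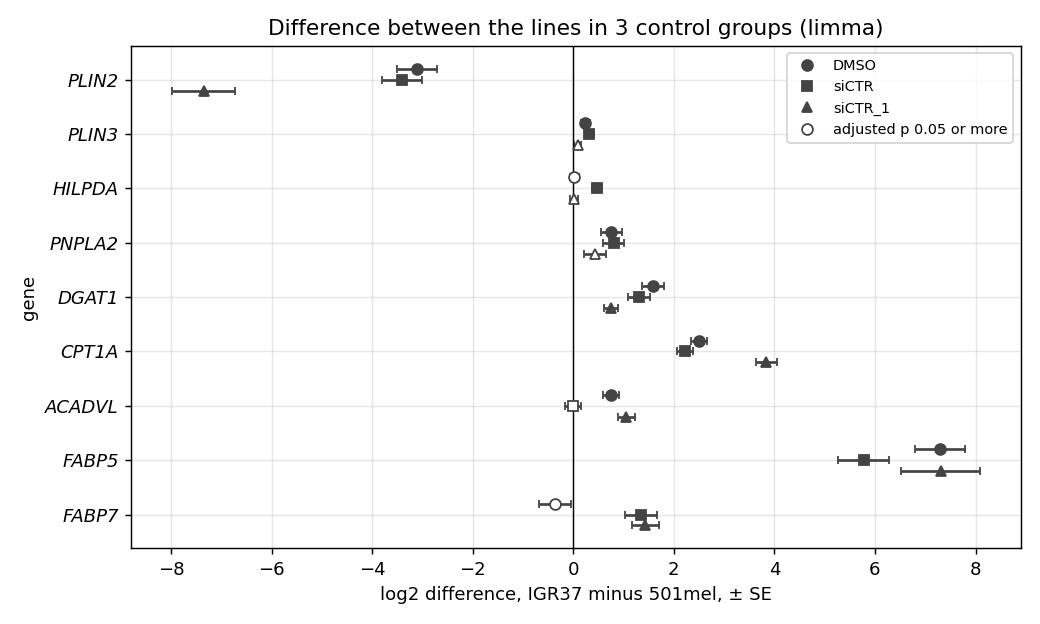
Difference between the lines for each gene, as IGR37 minus 501mel in log2 units (horizontal axis, ± SE), under DMSO, siCTR and siCTR_1, with 3 libraries per line and control; filled symbols passed an adjusted p of 0.05. PLIN2 lies far to the left and FABP5 far to the right under every control.

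PLIN2, the perilipin that coats droplets in most cells, had levels of 4.91, 4.74 and 4.69 in 501mel under DMSO against 1.36, 1.80 and 1.87 in IGR37. The lines did not overlap under any of the 3 controls. The difference was -3.10 ± 0.39 under DMSO (limma adjusted p = 2.23e-07), -3.40 ± 0.39 under siCTR (4.75e-08) and -7.35 ± 0.63 under siCTR_1 (7.20e-08). The last value rests on 4 IGR37 reads in all against 661 in 501mel, a ratio of 202 with a 95% counting interval of 78.4 to 743. For DMSO and siCTR the ratios were 8.63 (6.45 to 11.8) and 10.8 (8 to 14.8). These intervals cover counting error only.

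FABP5 ran the other way. Its IGR37 levels were 5.59, 5.37 and 5.45 under DMSO, whereas the 501mel libraries held 1 or 2 reads each. Summed over 3 libraries the ratio of IGR37 to 501mel was 180 (69.9 to 661) under DMSO, 57.3 (31.8 to 115) under siCTR and 168 (77.1 to 460) under siCTR_1. In 501mel no group had more than 13 FABP5 reads in all, and the highest library, under SCDi_A93, had 10. FABP5 has 14 annotated pseudogene copies and FABP7 has 2, of which 0 are listed in the tables, so reads of either gene could be shared with them.

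CPT1A, the carnitine transferase that admits long-chain fatty acids to mitochondria, had levels of 5.94, 5.54 and 5.74 in IGR37 and 3.44, 3.21 and 3.05 in 501mel under DMSO. The lines were far apart in every control, by 2.51 ± 0.16 under DMSO (limma adjusted p = 9.05e-13), 2.21 ± 0.16 under siCTR (8.90e-12) and 3.84 ± 0.21 under siCTR_1 (5.22e-10). DGAT1 was higher in IGR37 by 1.58 ± 0.22, 1.31 ± 0.22 and 0.75 ± 0.14 in the same order, all past the threshold.

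The remaining genes differed less or not under every control. PNPLA2 was higher in IGR37 by 0.75 ± 0.21 under DMSO and 0.80 ± 0.21 under siCTR, and the difference of 0.42 ± 0.22 under siCTR_1 did not pass (limma adjusted p = 0.104), although all IGR37 libraries were higher and it passed when only the groups compared were fitted (0.0107). ACADVL was higher by 0.75 ± 0.16 under DMSO and 1.06 ± 0.17 under siCTR_1, while under siCTR the interval of the difference was -0.32 to 0.32. PLIN3 was higher by 0.23 ± 0.09 and 0.32 ± 0.09 under DMSO and siCTR, but the DMSO value missed the threshold without IGR37 DMSO replicate 3 (0.16, adjusted p = 0.171, the highest over the alternatives, which reached down to 0.00461). HILPDA differed under siCTR alone (0.47 ± 0.09), with 0.02 ± 0.09 under DMSO. FABP7 was higher in IGR37 by 1.35 ± 0.32 under siCTR and 1.44 ± 0.27 under siCTR_1, and the DMSO difference was -0.36 ± 0.32 (adjusted p = 0.334). The 501mel FABP7 levels were 4.27, 4.03 and 4.47 under DMSO and 2.77, 3.56 and 3.28 under siCTR, which do not overlap. No test compared the controls with each other.

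Treated and matched control libraries were then compared in each line. In 501mel the inhibitor changed 0 of the 9 genes by limma, where 0.292% of all genes changed, and 0 had an unadjusted p under 0.05. With siSCD_2, 1 gene changed in 501mel (37.9% of all genes) and with siSCD_1 4 did (43%). In IGR37 the inhibitor changed 5 (44.1%), siSCD_2 4 (45.9%) and siSCD_1 5 (36.1%). In the 4 comparisons with more than 1 such gene, some rose and others fell. The median change of the 9 lay between -0.25 and 0.31, beside -0.01 to 0.01 for all genes.

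**Figure D3:**
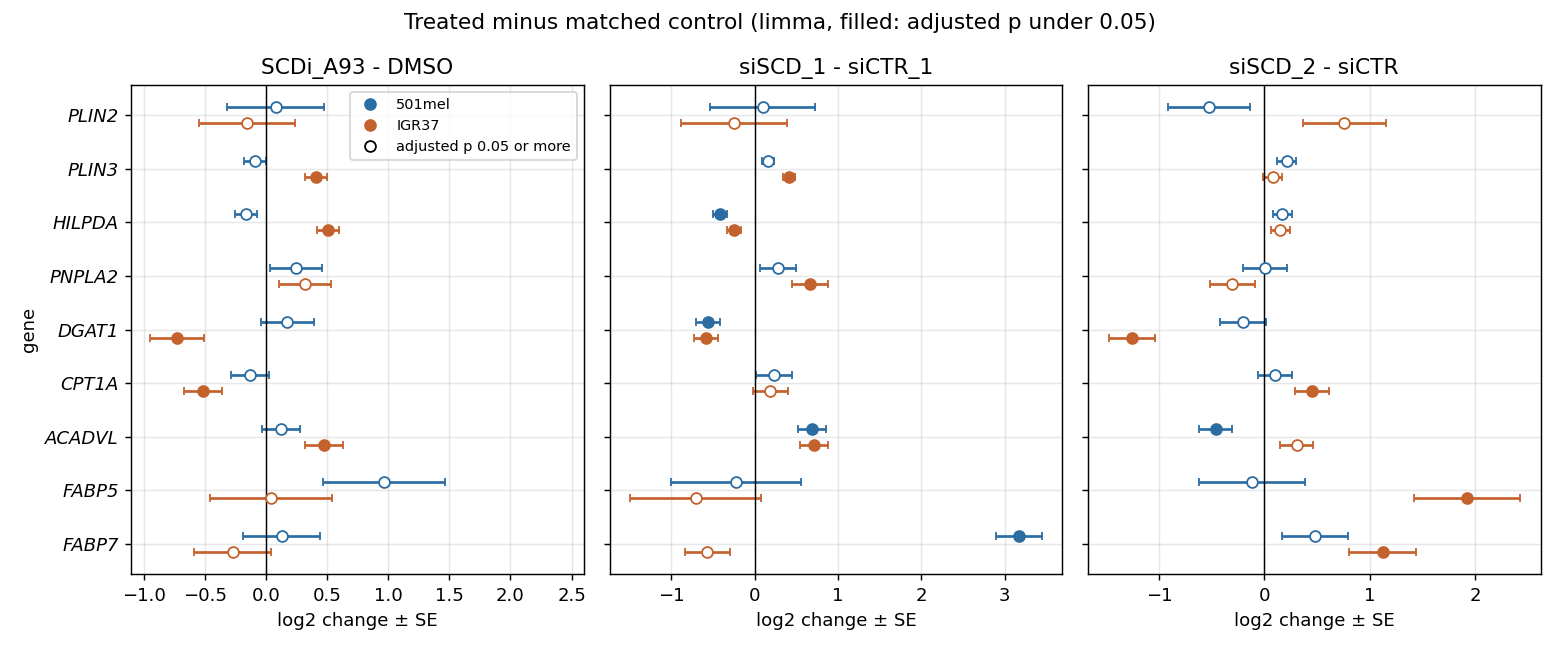
Change of each gene from its matched control (log2, horizontal axis, ± SE), with 3 treated and 3 control libraries per line, 501mel in blue and IGR37 in orange; filled points passed an adjusted p of 0.05. DGAT1 is filled and left of 0 in 4 of the 6 comparisons, and FABP7 with siSCD_1 lies at 3.17 in 501mel and at -0.57, unfilled, in IGR37.

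Among the droplet coats, PLIN3, which moves onto small and forming droplets, rose in IGR37 with the inhibitor and with siSCD_1. Its levels were 8.09, 8.11 and 8.17 with the inhibitor against 7.66, 7.62 and 7.88 under DMSO. With siSCD_1 they were 8.15, 8.08 and 8.04 against 7.63, 7.71 and 7.70. Every treated library was above every control in both. The changes were 0.41 ± 0.09 (limma adjusted p = 0.000571) and 0.41 ± 0.07 (0.000339), about 1.33-fold. The IGR37 change with siSCD_2 was 0.08 ± 0.09 (0.516), and in 501mel the 3 values were -0.09 ± 0.09 with the inhibitor, 0.21 ± 0.09 with siSCD_2 (0.0661) and 0.17 ± 0.07 with siSCD_1 (0.0755). The siSCD_1 value in 501mel passed without siCTR_1 replicate 1 (0.22, adjusted p = 0.0310), and under quantile normalisation it was 0.35. The siSCD_2 value passed without siCTR replicate 2 (0.27, 0.0373).

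HILPDA, the hypoxia-inducible inhibitor of ATGL, moved in opposite directions under different agents. In IGR37 it was at 7.64, 7.58 and 7.53 with the inhibitor and at 7.13, 6.98 and 7.12 under DMSO. This was a rise of 0.51 ± 0.09 (limma adjusted p = 5.67e-05). In 501mel the inhibitor gave -0.16 ± 0.09, which did not pass (0.5995), although every treated library was below every DMSO library. With siSCD_1 it fell in 501mel, from 7.51, 7.45 and 7.56 to 6.96, 7.30 and 7.004. That change was -0.42 ± 0.08 (0.000748), and -0.25 under quantile normalisation. In IGR37 siSCD_1 took it from 7.54, 7.49 and 7.55 to 7.29, 7.26 and 7.27. No treated library reached a control there, and the change was -0.25 ± 0.08 (0.0263). That call ended in 4 alternatives, among them without siCTR_1 replicate 1 and without siCTR_1 replicate 3, with adjusted p from 0.0102 to 0.0786. With siSCD_2 the changes of 0.17 ± 0.09 in 501mel and 0.15 ± 0.09 in IGR37 did not pass. The 501mel value passed without siSCD_2 replicate 3 (0.26, adjusted p = 0.0407). HILPDA overlaps AC010655.4 and AC010655.2 on its own strand.

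PLIN2 passed in none of the 6 comparisons by limma. Its lowest 501mel levels followed siSCD_2, at 4.56, 4.28 and 4.14 against 4.68, 4.99 and 4.90. The groups did not overlap, but the change of -0.53 ± 0.39 shared a spread with all libraries of the table (adjusted p = 0.316) and passed when only the groups compared were fitted (SE 0.15, 0.0404). In IGR37 the siSCD_2 libraries were at 3.63, 1.77 and 1.23, and 2 of them exceed the siCTR libraries at 1.38, 1.48 and 1.496. The change of 0.76 ± 0.39 (0.12) was 0.05 without siSCD_2 replicate 1 and 1.25 without replicate 3 (adjusted p = 0.00998, 0.00998 to 0.926 over the alternatives). It also passed under quantile normalisation (0.98, adjusted p = 0.0488) and with the replicate block (1.39, 0.0105), which drops the unnumbered library, replicate 3. The siSCD_2 replicate 1 had 66 reads where another library of its group had 14. In the second table IGR37 held 0 to 3 PLIN2 reads a library after siSCD_1, so a fall could not have been seen.

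DGAT1, the last enzyme of triglyceride synthesis, fell in 4 of the 6 comparisons. Its IGR37 levels were 4.69, 5.33 and 4.18 with siSCD_2 against 5.57, 6.19 and 6.21 with siCTR. They were 5.19, 5.08 and 4.89 with the inhibitor against 5.97, 5.59 and 5.77 under DMSO. After siSCD_1 they were 5.04, 5.34 and 5.10 against 5.80, 5.66 and 5.77. In each the highest treated library was below the lowest control. The changes were -1.26 ± 0.22 (limma adjusted p = 4.13e-05), -0.72 ± 0.22 (0.00898) and -0.58 ± 0.14 (0.0047). In 501mel siSCD_1 lowered it from 5.05, 4.99 and 4.94 to 4.61, 4.62 and 4.06, by -0.56 ± 0.14 (0.00485), which was -0.37 without siSCD_1 replicate 3 (0.0233). With the inhibitor and siSCD_2 the 501mel libraries overlapped their controls, at 0.18 ± 0.22 and -0.20 ± 0.22. DGAT1 overlaps HSF1 on the other strand, and AC233992.1 and MIR6848 on its own. Whether the counting used strand is not given in the sources used here.

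PNPLA2, the lipase that takes the opening fatty acid off triglyceride, changed once. In IGR37 after siSCD_1 it stood at 4.69, 5.90 and 5.21 against 4.56, 4.53 and 4.72. The lowest treated library lay within the controls. The rise of 0.66 ± 0.22 (limma adjusted p = 0.0265) was 0.34 without siSCD_1 replicate 2 (0.131, with 0.00143 to 0.131 over the alternatives), and it was lost in 5 alternatives, also without siCTR_1 replicate 1 and without siCTR_1 replicate 2. In the other 5 comparisons its change was between -0.31 and 0.32.

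CPT1A passed only in IGR37 comparisons, and in opposite directions. The inhibitor libraries were at 5.41, 5.10 and 5.17 against 5.94, 5.54 and 5.74, a fall of -0.51 ± 0.16 (limma adjusted p = 0.0101). The siSCD_2 libraries were at 6.04, 5.71 and 5.86 against 5.39, 5.46 and 5.40, a rise of 0.45 ± 0.16 (0.0219). Neither pair of groups overlapped. The controls themselves lay apart, since every siCTR library was below every DMSO library. The inhibitor libraries overlapped those of siCTR, and the siSCD_2 libraries overlapped those of DMSO. The gap between the controls was not tested. The fall did not pass without DMSO replicate 1 (-0.41, adjusted p = 0.0675, 0.00552 to 0.0675 over the alternatives). The rise did not pass without siCTR replicate 1 (0.44), without siCTR replicate 3 (0.44), without siSCD_2 replicate 1 (0.37) or with the replicate block (0.44), with adjusted p from 0.0146 to 0.105. In 501mel its changes were between -0.13 and 0.23. The siSCD_1 value there was 0.50 without siSCD_1 replicate 2 and passed (adjusted p = 0.0376). With siSCD_1 the IGR37 change was 0.19 ± 0.21 (limma adjusted p = 0.533). The difference in effect between the lines did not pass for the inhibitor (-0.38 ± 0.22, 0.22) or for siSCD_2 (0.35 ± 0.22, 0.284).

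ACADVL, the dehydrogenase for very long chains, rose in 3 comparisons and fell in 1. With siSCD_1 it went from 3.95, 4.05 and 4.27 to 4.89, 5.11 and 4.34 in 501mel and from 5.12, 5.34 and 4.99 to 5.84, 5.88 and 5.86 in IGR37. Neither line showed overlap, and the rises were 0.69 ± 0.17 (limma adjusted p = 0.0032) and 0.71 ± 0.17 (0.00316). The inhibitor raised it in IGR37 by 0.48 ± 0.16 (0.0146), from 5.15, 5.35 and 5.34 to 5.75, 5.81 and 5.71. That call ended without DMSO replicate 1 (0.41, adjusted p = 0.0666, 0.00259 to 0.0666 over the alternatives). In 501mel siSCD_2 gave -0.46 ± 0.16 (0.0201), with libraries at 4.96, 4.67 and 4.28 against 5.44, 5.12 and 4.74. These groups overlap, and the call ended when only the groups compared were fitted (adjusted p = 0.198), without siCTR replicate 1 (-0.29, 0.168), without siCTR replicate 2 (0.0506) and without siSCD_2 replicate 3 (-0.29, 0.173). The lowest adjusted p among the alternatives was 0.0025. ACADVL overlaps DLG4 on the other strand.

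FABP7 showed the largest change among these 9 genes in any of the 6 comparisons. In 501mel it stood at 6.44, 5.99 and 6.42 after siSCD_1 and at 2.85, 3.25 and 3.24 after siCTR_1, with 232 to 316 and 38 to 56 reads a library. The groups lay far apart, and the rise was 3.17 ± 0.27 (limma adjusted p = 1.93e-07), 8.994-fold. In IGR37 the same siRNA gave 4.01, 3.20 and 4.73 against 4.48, 4.68 and 4.49, a change of -0.57 ± 0.27 that did not pass (0.118). Without siSCD_1 replicate 3, the library above its controls, that change was -0.94 and passed (adjusted p = 0.00376, 0.00376 to 0.556 over the alternatives), and without siSCD_1 replicate 2 it was -0.18.

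With siSCD_2, FABP7 rose in IGR37, from 4.90, 4.35 and 4.40 to 5.60, 5.18 and 6.24, by 1.12 ± 0.32 (limma adjusted p = 0.0051). All 3 treated libraries were above the controls. With the replicate block, which drops the unnumbered IGR37 siSCD_2 library, the value was 0.79 (0.0813, with 0.00131 to 0.0813 over the alternatives). In 501mel the siSCD_2 change was 0.48 ± 0.32 (0.249), and the inhibitor gave 0.13 ± 0.32 in 501mel and -0.27 ± 0.32 in IGR37.

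FABP5 also rose with siSCD_2 in IGR37, from 5.49, 5.30 and 5.31 to 7.44, 6.57 and 7.86. No treated library came near a control, and the rise was 1.92 ± 0.50 (limma adjusted p = 0.00276), 3.79-fold, with 396 to 1419 reads a library against 211 to 286. With siSCD_1 the IGR37 libraries were all below their controls, at 5.61, 4.84 and 5.54 against 6.20, 6.08 and 5.83. The change of -0.71 ± 0.78 did not pass (0.522), and it passed with a pseudocount of 1 (-0.69, adjusted p = 0.0338) and when only the groups compared were fitted (SE 0.22, 0.0478). With the inhibitor the IGR37 change was 0.04 ± 0.50. In 501mel the changes were 0.97 ± 0.50 with the inhibitor (0.557), -0.12 ± 0.50 with siSCD_2 and -0.22 ± 0.78 with siSCD_1, all on a few reads.

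Direct tests asked whether an agent's effect differed between the lines, as IGR37 minus 501mel. For the inhibitor 3 of the 9 genes differed, where 27.6% of all genes did. They were HILPDA by 0.67 ± 0.13 (limma adjusted p = 0.000316), PLIN3 by 0.49 ± 0.13 (0.00447) and DGAT1 by -0.90 ± 0.31 (0.0319). For siSCD_2 3 differed, beside 21.1% of all genes: DGAT1 by -1.06 ± 0.31 (0.016), ACADVL by 0.77 ± 0.22 (0.0134) and FABP5 by 2.04 ± 0.71 (0.0413). In 501mel FABP5 had 3 to 4 reads a library with siCTR and 2 to 5 with siSCD_2, too few for a fall to be seen. For siSCD_1 1 differed, beside 20.3%: FABP7 by -3.73 ± 0.38 (2.64e-05). DGAT1 under the inhibitor missed the threshold in 9 of 19 alternatives (adjusted p from 0.00367 to 0.0823), FABP5 in 11 of 19 (0.000392 to 0.125). DGAT1 with siSCD_2 missed it in 3 of 19 (0.000529 to 0.0778): with the replicate block (-0.78), with only the groups compared, and without IGR37 siSCD_2 replicate 3 (-0.78). ACADVL with siSCD_2 missed it in 2 (0.00243 to 0.0629): with only the groups compared and without 501mel siSCD_2 replicate 3 (0.59). PLIN2 with siSCD_2, at 1.29 ± 0.56 (0.104), passed without IGR37 siSCD_2 replicate 3 (1.78, adjusted p = 0.0144) and with the replicate block (1.91, 0.0172). For DGAT1, ACADVL and HILPDA with siSCD_1 the intervals of the line difference were -0.45 to 0.41, -0.48 to 0.52 and -0.08 to 0.41.

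The inhibitor and siSCD_2, which share a table but not controls, were compared as effects within each line. In 501mel 0 of the 9 genes differed by limma, beside 21% of all genes. PLIN3, HILPDA and ACADVL made up the 3 with an unadjusted p under 0.05. In IGR37 5 differed, beside 38.8%. The inhibitor's effect was lower than that of siSCD_2 for CPT1A by 0.97 (-0.97 ± 0.22, adjusted p = 0.00127), for FABP7 (-1.39 ± 0.45, 0.0153) and for FABP5 (-1.88 ± 0.71, 0.0377), and higher for PLIN3 (0.33 ± 0.13, 0.0398) and HILPDA (0.36 ± 0.13, 0.0295). CPT1A passed in all 19 alternatives, whereas PLIN3 was lost in 11, FABP5 in 12, HILPDA in 6 and FABP7 in 2. The CPT1A value includes the gap between its IGR37 controls, at means of 5.74 under DMSO and 5.42 under siCTR. PLIN3 was 0.22 without siSCD_2 replicate 2 in IGR37 and 0.57 under quantile normalisation, and HILPDA was 0.58 under the latter.

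HILPDA and FABP7 share a word in their 3′ untranslated regions. CTTCCTA had been picked in an earlier reading of these tables because genes holding it were lower with siSCD_1, so it supports nothing here. The GENCODE 29 sites are shown because these genes moved in opposite directions in 501mel with that siRNA, with the word in capitals.
HILPDA: tcaaccctaCTTCCTAaacatctgt
FABP7: cccttgcttCTTCCTActtcccgga
The sites begin at base 640 of 956 in HILPDA and at base 1012 of 1549 in FABP7. The word is held by 14.2% of 11671 genes, of which 25.3% fell with siSCD_1 in 501mel and 22.9% in IGR37, against 22.4% and 19.6% of the genes without it. None of the 9 genes holds GCTTCCT, the other word picked in that way (19.4% of genes). The part of either word in these changes was not tested.

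Within the first table the order of levels across groups separated the lines for PLIN2, CPT1A and FABP5. How many of all genes separate the lines in this way was not counted. By limma 60.8% of all genes differed between the lines under DMSO and 62.6% under siCTR. For CPT1A the 4 501mel groups, at means of 3.10 to 3.30, overlapped as neighbours and lay 1.92 below the lowest IGR37 group. For FABP5 the 501mel groups overlapped, then the IGR37 siCTR, DMSO and inhibitor groups overlapped at 5.37 to 5.51, and siSCD_2 stood above them at 7.29. For PLIN2 the IGR37 groups came first and overlapped, and the 501mel siSCD_2 group at 4.33 lay between them and the other 501mel groups, apart from both. For HILPDA, DGAT1 and PNPLA2 the 501mel groups also came lower, but the highest of them overlapped the lowest IGR37 group. For ACADVL the order was alike, except that the siCTR groups of both lines shared a mean of 5.10 and overlapped. The lines were mixed in the orders of PLIN3 and FABP7. HILPDA was highest in IGR37 with the inhibitor (7.58), apart from its neighbour, and ACADVL was too (5.76). FABP7 was lowest in 501mel with siCTR (3.20), which was apart from its neighbour but overlapped 501mel siSCD_2 (3.68) further up the order. It was highest in IGR37 with siSCD_2 (5.67), apart from its neighbour. In the second table FABP7 was highest in 501mel with siSCD_1.

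Genes of the same pathways were counted from 7 lists, without set tests. The lists include the 9 genes themselves, so the counts partly repeat results given above. For example, without the 9 genes the droplet list had 1 up and 3 down with the inhibitor in IGR37. Uptake and binding then had 2 up and 1 down with siSCD_2 in IGR37, and lipolysis 1 up with siSCD_1 in IGR37. Each count is read against the share of all genes that passed in either direction: in 501mel 0.292% with the inhibitor, 37.9% with siSCD_2 and 43% with siSCD_1, and in IGR37 44.1%, 45.9% and 36.1%. With the inhibitor in 501mel limma called 1 gene each in the synthesis and mitochondrial lists and 0 in the other 5, where 4 had an unadjusted p under 0.05.

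In the droplet coat and assembly list 13 of 23 genes were measured. In 501mel 1 rose and 3 fell with siSCD_2 (30.8%), and 3 rose and 3 fell with siSCD_1 (46.2%). In IGR37 the counts were 3 and 3 with the inhibitor (46.2%), 3 and 1 with siSCD_2 (30.8%) and 4 and 3 with siSCD_1 (53.8%). With the inhibitor in IGR37 FITM2, which partitions triglyceride into budding droplets, fell by -1.95 ± 0.35 (limma adjusted p = 5.79e-05). AUP1, a droplet protein of the degradation machinery, fell with siSCD_1 in 501mel (-0.86 ± 0.07) and IGR37 (-0.75 ± 0.07) and rose with siSCD_2 in IGR37 (0.75 ± 0.08). ACSL3, which activates fatty acids on new droplets, fell with siSCD_2 in 501mel (-0.85 ± 0.09) and IGR37 (-0.31 ± 0.09) and rose with siSCD_1 in 501mel (0.85 ± 0.09). The list's median change was between -0.12 and 0.15.

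**Figure D4:**
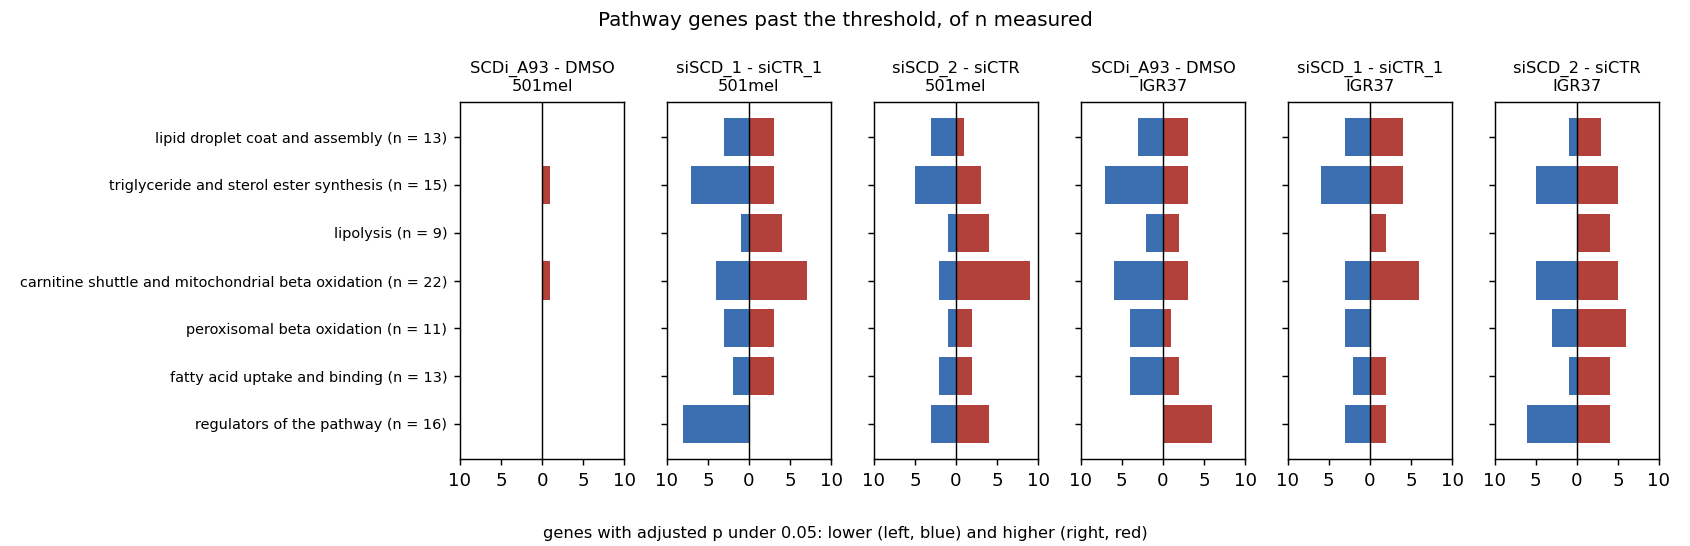
Number of genes of each pathway list past an adjusted p of 0.05 in the 6 treated-minus-control comparisons, lower to the left in blue and higher to the right in red, with the number measured beside each list. Bars stand on both sides in most panels, and the regulators lie all to the left with siSCD_1 in 501mel and all to the right with the inhibitor in IGR37.

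In triglyceride and sterol ester synthesis, with 15 of 18 measured, more genes fell than rose in 4 comparisons. The counts were 7 down and 3 up with siSCD_1 in 501mel and with the inhibitor in IGR37, 6 and 4 with siSCD_1 in IGR37, and 5 and 3 with siSCD_2 in 501mel. With siSCD_2 in IGR37 5 fell and 5 rose. The share of the list called was 53.3% with siSCD_2 in 501mel, against 37.9% of all genes, and 66.7% in each of the other 4, against 36.1% to 45.9%. In the 4 comparisons the medians were -0.53, -0.40, -0.39 and -0.20, beside all-gene medians of -0.01 to 0.01. GPAM, the mitochondrial acyltransferase that starts glycerolipid synthesis, fell with siSCD_2 (-1.58 ± 0.17) and siSCD_1 (-1.63 ± 0.18) in 501mel and with siSCD_1 in IGR37 (-1.31 ± 0.18). AGPAT1, of the following step, fell with siSCD_2 in 501mel (-0.90 ± 0.08) and with the inhibitor in IGR37 (-0.92 ± 0.08). LPIN1, a phosphatidate phosphatase, was the list's gene that rose with the inhibitor in 501mel (0.83 ± 0.15, limma adjusted p = 0.00619), and it rose there with siSCD_2 (1.42 ± 0.15).

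Lipolysis, with 9 of 10 measured, had 4 up and 1 down with each siRNA in 501mel, and in IGR37 4 up with siSCD_2, 2 up with siSCD_1 and 2 up and 2 down with the inhibitor. The shares called were 55.6% for both 501mel counts, and 44.4%, 22.2% and 44.4% in IGR37, where the shares with siSCD_2 and the inhibitor were near those of all genes. PNPLA8, a phospholipase, rose with all 3 agents in IGR37 (1.35 ± 0.15, 1.23 ± 0.15 and 0.98 ± 0.18 for inhibitor, siSCD_2 and siSCD_1). PNPLA3 rose with siSCD_2 (1.01 ± 0.22) and siSCD_1 (1.03 ± 0.16) in 501mel. MGLL, which cuts the last fatty acid from glycerol, fell with the inhibitor (-2.20 ± 0.34) and rose with siSCD_2 (1.44 ± 0.34) in IGR37, and fell with siSCD_1 in 501mel (-2.43 ± 0.48).

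The carnitine shuttle and mitochondrial oxidation list had 22 of 24 measured. In 501mel 9 rose and 2 fell with siSCD_2, and 7 rose and 4 fell with siSCD_1. In IGR37 the counts were 3 and 6 with the inhibitor, 5 and 5 with siSCD_2 and 6 and 3 with siSCD_1. The shares called were 50% in both 501mel comparisons and 40.9%, 45.5% and 40.9% in IGR37, the last 3 near those of all genes. HADH, a dehydrogenase of the spiral, rose with siSCD_2 in 501mel (1.198 ± 0.10, limma adjusted p = 1.48e-09) and fell with siSCD_1 in IGR37 (-0.60 ± 0.12). DECR1, needed for unsaturated chains, rose with siSCD_2 in both lines (1.19 ± 0.20 and 1.203 ± 0.20). ACADS, the short-chain dehydrogenase, fell with siSCD_2 in IGR37 (-1.68 ± 0.14) and siSCD_1 in 501mel (-0.68 ± 0.16). Peroxisomal oxidation, with 11 of 14 measured, had 6 up and 3 down with siSCD_2 in IGR37 and 1 up and 4 down with the inhibitor there, at medians of 0.36 and -0.25. Those are 81.8% of the list, against 45.9% of all genes, and 45.5%, against 44.1%. The other counts were 2 up and 1 down with siSCD_2 in 501mel (27.3%), 3 and 3 with siSCD_1 in 501mel (54.5%) and 3 down with siSCD_1 in IGR37 (27.3%). In IGR37 ABCD3, a peroxisomal fatty acid transporter, rose with siSCD_2 (0.44 ± 0.10) and fell with the inhibitor (-0.64 ± 0.10).

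Uptake and binding had 13 of 20 measured. In 501mel 2 rose and 2 fell with siSCD_2 (30.8%) and 3 rose and 2 fell with siSCD_1 (38.5%). In IGR37 2 rose and 4 fell with the inhibitor (46.2%), 4 rose and 1 fell with siSCD_2 (38.5%), and 2 rose and 2 fell with siSCD_1 (30.8%). All these shares are below or near those of all genes. ACBD3, a Golgi acyl-CoA binding domain protein, was among the genes named in 4 comparisons and rose in each. The rises were 1.72 ± 0.09 with the inhibitor in IGR37 and 0.92 ± 0.09 with siSCD_2 in 501mel. With siSCD_1 they were 0.99 ± 0.08 in 501mel and 1.00 ± 0.08 in IGR37. SLC27A4, a fatty acid transporter, fell with the inhibitor in IGR37 (-1.23 ± 0.13) and with siSCD_2 (-0.40 ± 0.13) and siSCD_1 (-0.75 ± 0.15) in 501mel.

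Of 16 measured regulators, 8 fell with siSCD_1 in 501mel (50%, against 43% of all genes), at a median of -0.53, and 6 rose with the inhibitor in IGR37 (37.5%, against 44.1%), at a median of 0.24. With siSCD_2 4 rose and 3 fell in 501mel (43.8%) and 4 rose and 6 fell in IGR37 (62.5%, against 45.9%), and with siSCD_1 2 rose and 3 fell in IGR37 (31.2%). PPARA, the receptor that drives oxidation genes, rose with the inhibitor (1.23 ± 0.15, limma adjusted p = 3.44e-07) and fell with siSCD_2 (-1.09 ± 0.15, 2.31e-06) in IGR37. PPARGC1A, a coactivator of mitochondrial genes, fell by -2.55 ± 0.16 with siSCD_2 in IGR37 and by -1.24 ± 0.14 with siSCD_1 in 501mel. In IGR37 CPT1A fell where PPARA rose, with the inhibitor, and rose where PPARA fell, with siSCD_2. ACADVL rose there with the inhibitor (0.48 ± 0.16, 0.0146), and with siSCD_2 its change was 0.31 ± 0.16 (limma adjusted p = 0.11). A link of either gene to PPARA was not tested.

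By Pearson correlation over the 24 libraries of the first table, after each line's mean was removed, the gene most like DGAT1 was MRPL28 (r = 0.917), most like HILPDA was HPCAL1 (0.916) and most like FABP7 was SYNCRIP (0.886). For PLIN3 it was HDDC2 (0.869), for CPT1A ACAD9 (0.849), itself of the oxidation list, and for FABP5 AIFM1 (0.791). For ACADVL, PLIN2 and PNPLA2 the closest were NCOA3 (0.783), CTAG2 (0.754) and RPL39 (0.751). These values describe shared patterns over treatments and libraries and are not tests.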

How the data were processed

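RNA of 36 libraries from 501mel and IGR37 cells was made into QuantSeq Forward libraries, which count 3′ transcript ends, per the labels' protocols. The submitters' processing notes name STAR, edgeR and the build hg38, with tool versions not given in the sources used here. The deposited values are log2 values in 2 tables that the authors scaled apart from each other, and they behave as log2 CPM with a prior count of 0.25. Spike-in rows (2.43 to 7.21% and 3.76 to 5.71% of reads) stayed out.

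Each table was fitted with limma 3.58.1 in R 4.3.3, with 1 coefficient per group and a variance trend, two-sided, adjusted by Benjamini-Hochberg over all genes. The threshold was an adjusted p of 0.05. A level is a log2 value, and a change is a difference of group means ± SE. The fit was tested on simulated data. Read numbers were recovered from the log2 values and used only for depth and counting intervals (95%, exact conditional binomial, SciPy 1.17.1).

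Named genes were the 9 members, SCD, at most 3 per pathway list and comparison with the smallest adjusted p, and the most alike genes. The members and lists were chosen with earlier results of these data known. Alternatives tried were centring, quantile normalisation, a pseudocount of 1, a filter, no variance trend, only the groups compared, the replicate block, and each library left out. For IGR37 siSCD_2 the replicate numbers are 1, 2 and 13 in the labels, where the columns carry 1, 2 and 3. The last column was used as an unnumbered library of that group, called replicate 3. A promoter match of another gene is not reported here.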

Additional observations from a re-analysis of the deposited data

Results flagged for a closer look

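The effect of a treatment differed between the lines, by limma's test of the difference itself (IGR37 minus 501mel), in 7 results. With the inhibitor these were PLIN3 (0.49 ± 0.13, adjusted p = 0.00447), HILPDA (0.67 ± 0.13, 0.000316) and DGAT1 (-0.90 ± 0.31, 0.0319). With siSCD_2 they were DGAT1 (-1.06 ± 0.31, 0.016), ACADVL (0.77 ± 0.22, 0.0134) and FABP5 (2.04 ± 0.71, 0.0413). With siSCD_1 it was FABP7 (-3.73 ± 0.38, 2.64e-05), which rose in 501mel and did not pass in IGR37. The FABP5 result sets IGR37 against 501mel libraries that held 2 to 5 FABP5 reads each.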

How the results depend on the processing

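Of 52 results for single genes that passed, 36 passed under every alternative run and 16 missed the threshold under at least 1. Of 74 that did not pass, 21 passed under at least 1. A single value turned sign past the threshold: FABP5 with siSCD_1 in 501mel was 1.15 (adjusted p = 0.0287) without siSCD_1 replicate 2, a library with 0 FABP5 reads, and -0.95 without replicate 3, the ends of its range over the libraries left out. Counts of the 9 genes moved as follows. Under centring on the median, the agents' difference in IGR37 counted 3 genes (main 5) and the siSCD_1 line difference 2 (main 1), with an all-gene median of 0.11 for the latter. Without a variance trend, the agents' difference in IGR37 and siSCD_1 in IGR37 both counted 3 (main 5). With only the groups compared, the agents' difference in 501mel counted 1 (main 0) and the siSCD_2 line difference 1 (main 3). Leaving out each library gave, in 501mel, 0 to 0 for the inhibitor, 0 to 1 for siSCD_2 and 4 to 6 for siSCD_1, and in IGR37 3 to 5, 3 to 5 and 3 to 6. The line differences gave 2 to 3 for the inhibitor, 2 to 3 for siSCD_2 and 1 to 2 for siSCD_1. The lines under DMSO, siCTR and siCTR_1 gave 6 to 7, 8 to 8 and 6 to 6, and the agents' difference 0 to 1 in 501mel and 2 to 5 in IGR37. The cause of these moves was not tested.

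The replicate numbers are not known to pair the libraries. Of 17 pairs with the same number, 5 had correlated deviations above 0.1 and 7 were most correlated with their own number (r from -0.192 to 0.252). With the replicate block the agents' difference in 501mel counted 1 gene (main 0), and no other count moved by over 1.5 times, but the genes that passed changed. In IGR37 with siSCD_2, PLIN2 passed (1.39) and CPT1A (0.44) and FABP7 (0.79) did not. In the siSCD_2 line difference PLIN2 passed (1.91, adjusted p = 0.0172) and DGAT1 (-0.78, 0.0778) and FABP5 (1.70, 0.125) did not. In the agents' difference in IGR37 PLIN2 passed (-1.54, 0.0313) and FABP5 (-1.54, 0.117) and FABP7 (-1.06, 0.0808) did not, and in 501mel the gene was ACADVL (0.59, 0.0262). Depth limits FABP5 in 501mel and PLIN2 in IGR37, which had 0 to 10 and 0 to 66 reads a library.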
